A study of Mus musculus with 9 samples.

Results

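The loci examined were those of 7 genes that set how much active MyoD1 dimer a myoblast can form: the inhibitors Id1, Id2, Id3 and Id4, and the E-protein partners Tcf3, Tcf4 and Tcf12. A locus was the gene body with 10 kb on either side, in the mouse build mm10 with GENCODE M21 as annotation. The members are 7 of 21911 protein-coding genes. Their windows held 131 of the 116126 MyoD1 peaks deposited for 6 libraries. Merged where they overlapped or touched, these peaks formed 40 of 58309 regions, 15 at the Id genes and 25 at the E-protein genes.

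MyoD1 is a basic helix-loop-helix (bHLH) factor that binds DNA as a dimer with an E-protein. Tcf3 encodes the E-proteins E12 and E47, Tcf4 encodes E2-2 and Tcf12 encodes HEB, and all of them are made in many tissues. Tcf4 here is not the Wnt effector Tcf7l2, which shares that alias. Id proteins keep the helix-loop-helix but lack the basic part that touches DNA, so an E-protein held by an Id protein cannot bind an E-box with MyoD1. Id levels are high in proliferating myoblasts, answer to BMP signals through Smad factors, and fall as muscle differentiates.

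The assay was CUT and RUN: an antibody guides a nuclease to its target on chromatin, and the fragments it releases are sequenced. The cells were C2C12, a mouse skeletal muscle myoblast line, in a clonal derivative with 3xF-HaloTagged MyoD1 at its own locus. The derivative also carries added dox-inducible 3xF-Halo-MyoD1 alleles driven by TRE3GS, whose copy number is not given. Both groups carry the tagged endogenous and the inducible alleles. The study's methods have both moved to differentiation medium, while the sample labels describe growth medium only. One group of 3 biological replicates received doxycycline for 6 h (+dox) and 3 received no treatment (no dox), so the comparison is of elevated against endogenous MyoD1 levels. The anti-Flag antibody sees the endogenous and the induced protein alike, and by the study's account only part of the nuclei express the transgene. The series also has 3 wild-type libraries from untagged cells, not analysed here, and the values therefore stand without that background. The lists hold binding and no expression.

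The lists were unequal. The no dox lists held 9389 to 13877 peaks at a depth of 4297000 to 4667000 alignments. The +dox replicates 1 and 2 held 12536 and 13260 peaks at 2868000 and 3597000 alignments, and +dox replicate 3 held 53661 peaks at 8030000. Of all merged regions, 59.2% were called in +dox replicate 3 alone, and a list with more low peaks gives the same peak a higher rank. Height is therefore given on 3 scales: the maximum signal in CPM (coverage scaled to library size), the percentile of that maximum within the library's own list, and the percentile among the 4838 regions called in all 6 libraries (8.30% of regions), here called the shared-set percentile. The last has the same denominator in each library. Median differences (+dox minus no dox) over those 4838 regions were 6.40 percentile points within lists and 0.195 points on the shared-set scale, and the median ratio of CPM was 1.94. Of 6 marker loci of myoblasts and satellite cells, 5 (Myod1, Des, Cdh15, Myog and Pax7, but not Myf5) had a region in at least 2 of 3 libraries without dox, beside 35.5% of all genes, and 4 had one with dox (not Myog or Myf5), beside 48.4%.

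The sequences that follow are the 200 bp around the maximum of 6 regions, shown because they are the strongest region of each of Id1, Id2 and Id3, the other Id1 and Id3 regions whose groups did not overlap on the shared-set scale, and the region of Tcf12 with calls in the +dox libraries only. They are the plus strand of GRCm38, the assembly behind mm10. Capitals mark CAGCTG, the E-box that MyoD1 prefers, and CAGGTG or its reverse complement CACCTG, an E-box bound by many E-protein dimers. Id2 and Tcf12 lie on the minus strand and the others on the plus strand.
Id1, 925 bp before the gene start, chr2:152735226-152735425: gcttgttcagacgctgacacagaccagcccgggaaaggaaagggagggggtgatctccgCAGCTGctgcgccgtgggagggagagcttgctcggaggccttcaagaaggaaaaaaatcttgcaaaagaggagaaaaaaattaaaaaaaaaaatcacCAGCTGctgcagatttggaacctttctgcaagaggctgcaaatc
Id1, 6525 bp before the gene start, chr2:152729626-152729825: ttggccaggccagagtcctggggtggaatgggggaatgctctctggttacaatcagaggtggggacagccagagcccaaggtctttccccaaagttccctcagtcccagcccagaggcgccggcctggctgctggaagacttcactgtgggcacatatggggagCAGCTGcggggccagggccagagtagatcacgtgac
Id2, 1736 bp before the gene start, chr12:25098776-25098975: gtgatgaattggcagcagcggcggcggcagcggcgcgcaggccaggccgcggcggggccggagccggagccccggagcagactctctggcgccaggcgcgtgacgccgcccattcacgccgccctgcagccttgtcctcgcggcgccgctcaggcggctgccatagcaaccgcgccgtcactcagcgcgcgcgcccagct
Id3, 3021 bp before the gene start, chr4:136140376-136140575: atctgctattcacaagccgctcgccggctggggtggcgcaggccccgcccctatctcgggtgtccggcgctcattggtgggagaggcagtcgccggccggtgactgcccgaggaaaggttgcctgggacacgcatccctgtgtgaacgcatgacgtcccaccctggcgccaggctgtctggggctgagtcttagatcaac
Id3, 4479 bp after the gene start, chr4:136147876-136148075: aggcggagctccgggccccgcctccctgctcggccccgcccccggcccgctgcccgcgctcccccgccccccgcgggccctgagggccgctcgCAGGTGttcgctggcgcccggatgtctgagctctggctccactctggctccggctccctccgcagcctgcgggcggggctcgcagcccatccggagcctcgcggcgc
Tcf12, 255 bp before the gene start, chr9:72112026-72112225: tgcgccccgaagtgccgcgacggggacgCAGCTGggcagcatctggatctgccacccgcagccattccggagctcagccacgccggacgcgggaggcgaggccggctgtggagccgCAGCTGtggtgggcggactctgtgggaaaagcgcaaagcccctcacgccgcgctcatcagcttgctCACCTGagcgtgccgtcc

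The Id genes and the E-protein genes differed first in how densely they were called. The 4 Id windows span 91.56 kb in all and without dox held 10, 14 and 8 peaks (replicates 1, 2 and 3), with dox 15, 13 and 17. The 3 E-protein windows span 699.042 kb and held 2, 7 and 6 peaks without dox, and 8, 8 and 23 with dox. Per 100 kb, the Id windows held 10.9, 15.3 and 8.74 peaks without dox against 0.286, 1.00 and 0.858 in the E-protein windows. With dox these densities were 16.4, 14.2 and 18.6 at the Id genes and 1.14, 1.14 and 3.29 at the E-protein genes. The Id windows were the denser set in each of the 6 libraries. The windows also differ in length, and the share of that in the gap was not tested. Peaks per 100 kb over all genes are not given here, so neither set is placed against them. Across all genes, a reproducible no dox region was found in 25.7% of genes with a window of at most 30 kb. For genes with a window of at least 250 kb it was 41.0%. These are shares of genes and not densities.

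**Figure D1:**
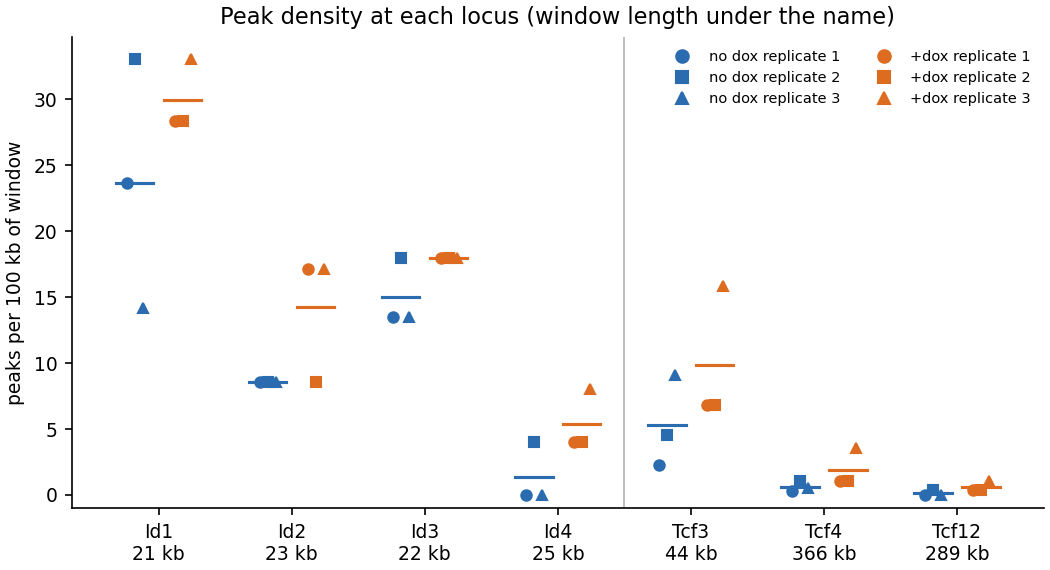
Peaks per 100 kb of window (vertical axis) at each of the 7 loci, with the window length in kb under each name. Points are libraries (blue, no dox; orange, +dox; circle, square and triangle for replicates 1, 2 and 3) and bars are means of 3. Id1 reached 33.1 peaks per 100 kb in no dox replicate 2 and +dox replicate 3, while no library exceeded 3.55 at Tcf4 or 1.04 at Tcf12.

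A peak was present in all 6 libraries at 5 of the 7 loci, namely Id1, Id2, Id3, Tcf3 and Tcf4, beside 24.7% of all protein-coding genes. Id4 and Tcf12 each had a peak in no dox replicate 2 alone of the untreated libraries and in all 3 +dox libraries. By the study's own rule, a consensus region is one found in at least 2 of 3 libraries of a group. The no dox consensus held 13 regions at the 7 loci: 5 at Id1, 2 at Id2, 3 at Id3, 1 at Tcf3 and 2 at Tcf4. Thus 5 of 7 members had one, beside 35.5% of all genes. The one at Tcf3 lies beside the start of a different gene, Mbd3. With peaks given to the gene with the nearest start, the no dox consensus held 12 regions. That setting was chosen after seeing the data. The +dox consensus held 18 regions and reached all 7 members, beside 48.4% of all genes. At Id1, Id2 and Id3 the number of consensus regions was the same with dox as without. The 5 regions found in the +dox consensus only lay 1 at Id4, 2 at Tcf3, 1 at Tcf4 and 1 at Tcf12, and made up 1 of the 11 +dox consensus regions at Id genes and 4 of the 7 at E-protein genes, beside 38.5% of the +dox consensus regions of the series. The E-protein windows are 699.042 of the 790.602 kb, and no test was made on these counts.

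Id1 had 7 MyoD1 regions in a window of 21.16 kb, the most of the 4 Id genes. Its strongest region, the one 925 bp before the gene (chr2:152734651-152737100, intergenic at its maximum, reaching over the gene start), had a maximum of 11.6, 16.7 and 6.00 CPM in no dox replicates 1, 2 and 3. With dox the same region stood at 87.9, 49.5 and 27.1 CPM. All 3 +dox libraries were above all 3 no dox libraries, with 178 to 252 alignments at the maximum against 28 to 74. The ratio of the means was 4.79, and 99.8% of the regions called in all 6 libraries ranked below it by that ratio. Its percentile within lists was 83.8 ± 6.39 without dox and 97.5 ± 0.959 with dox (SD, n = 3 each). On the shared-set scale it was 65.8 ± 11.0 without and 89.1 ± 5.93 with dox (SD, n = 3 each), again without overlap. Both E-boxes in the 200 bp around its maximum are CAGCTG, as printed above.

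The Id1 region 6525 bp before the gene (chr2:152728701-152730500, intergenic) moved furthest of all 10 member regions called in all 6 libraries on the shared-set scale. Its maximum was 4.65, 4.97 and 5.14 CPM without dox, a narrow range resting on 20 to 24 alignments. With dox it was 39.1, 26.7 and 10.7 CPM. The groups did not overlap, and the ratio of the means, 5.18, ranked above 99.9% of the regions called in all 6. Its percentile was 57.5 ± 15.2 without dox and 91.7 ± 1.62 with dox within lists, and 27.8 ± 15.8 and 67.3 ± 16.6 on the shared-set scale (SD, n = 3 each). The other Id1 region called in all 6 libraries, 9325 bp before the gene (chr2:152726301-152727650, intergenic), had overlapping groups. It stood at 10.7, 5.42 and 6.00 CPM without dox and at 6.97, 12.8 and 16.7 CPM with dox. Its percentile was 73.0 ± 10.8 without and 70.4 ± 28.1 with dox (SD, n = 3 each; p = 0.8 in the exact two-sided permutation test, 0.939 when adjusted over 4838 regions). This region too holds 2 CAGCTG sequences around its maximum. The further Id1 regions at 3275 and 5425 bp after the gene start were each called in 5 libraries, with no dox replicate 3 the one without a peak.

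Id2 had 2 regions called in all 6 libraries, and both stood higher in each +dox list. The one 1736 bp before the gene (chr12:25097151-25101650, intergenic) was at 15.8, 14.5 and 7.71 CPM without dox and at 69.0, 42.3 and 15.4 CPM with dox. In CPM the +dox replicate 3 fell just below no dox replicate 1, so the groups touched on that scale. In percentiles within lists they did not overlap, with 87.4 ± 2.30 against 96.0 ± 0.643, but on the shared-set scale they did, with 71.3 ± 6.98 against 81.1 ± 14.6 (SD, n = 3 each). The second region, 814 bp after the gene start and in an Id2 intron at its maximum (chr12:25095451-25096900), was at 3.26, 4.06 and 3.43 CPM without dox and 16.7, 17.8 and 4.23 CPM with dox. Its percentile was 40.5 ± 17.4 without and 79.6 ± 4.39 with dox within lists (SD, n = 3 each), the widest difference of any member region at 39.0 points, with no overlap. On the shared-set scale +dox replicate 3 was at 12.8, inside the no dox range of 6.58 to 24.3.

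Id3 carried the strongest no dox binding of the 7 loci. Its region 3021 bp before the gene (chr4:136140001-136141500, intergenic) stood at 27.9, 20.3 and 11.6 CPM without dox and at 71.1, 46.7 and 18.2 CPM with dox. In CPM the groups overlapped, with +dox replicate 3 below no dox replicates 1 and 2. Its percentile within lists was 93.7 ± 1.84 without dox and 96.5 ± 0.445 with dox (SD, n = 3 each), without overlap. On the shared-set scale the groups overlapped, at 84.8 ± 6.21 against 83.7 ± 11.9 (SD, n = 3 each), a difference of -1.14. A weaker Id3 pair differed by more. The region across the gene start (chr4:136141801-136145400) had its maximum in an Id3 UTR. It was at 11.6, 13.1 and 3.86 CPM without dox and 58.6, 36.7 and 13.7 CPM with dox. Its percentile was 76.8 ± 13.8 against 94.9 ± 0.792 within lists (SD, n = 3 each), without overlap. On the shared-set scale it was 54.8 ± 21.2 against 77.3 ± 15.8 (SD, n = 3 each), and the groups overlapped. The region 4479 bp after the gene start (chr4:136145851-136148700, intergenic) was at 6.98, 7.68 and 3.43 CPM without dox and 34.9, 17.2 and 10.1 CPM with dox. Its percentile was 64.7 ± 9.42 against 88.4 ± 5.51 within lists, and 35.1 ± 9.57 against 59.5 ± 15.3 on the shared-set scale (SD, n = 3 each). The groups of this region did not overlap on either scale. Within the gene, then, the strongest of the 3 regions had the smallest ratio of CPM, 2.27 against 3.81 and 3.44.

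Id4, best known from neural tissue, was the exception among the inhibitors. Its single region, 252 bp before the gene start (chr13:48260551-48262100), lies in introns of the annotated transcripts A330033J07Rik and Gm49291. It was called at 4.06 CPM in no dox replicate 2 and in neither of the other untreated libraries. With dox it was at 9.07, 6.67 and 3.49 CPM, or 24 to 28 alignments. Its percentiles with dox were 52.8, 46.9 and 77.0, each below the best peak of Id1, Id2 and Id3 in the same library. A library without a call holds no value here, so no fold can be given.

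**Figure D2:**
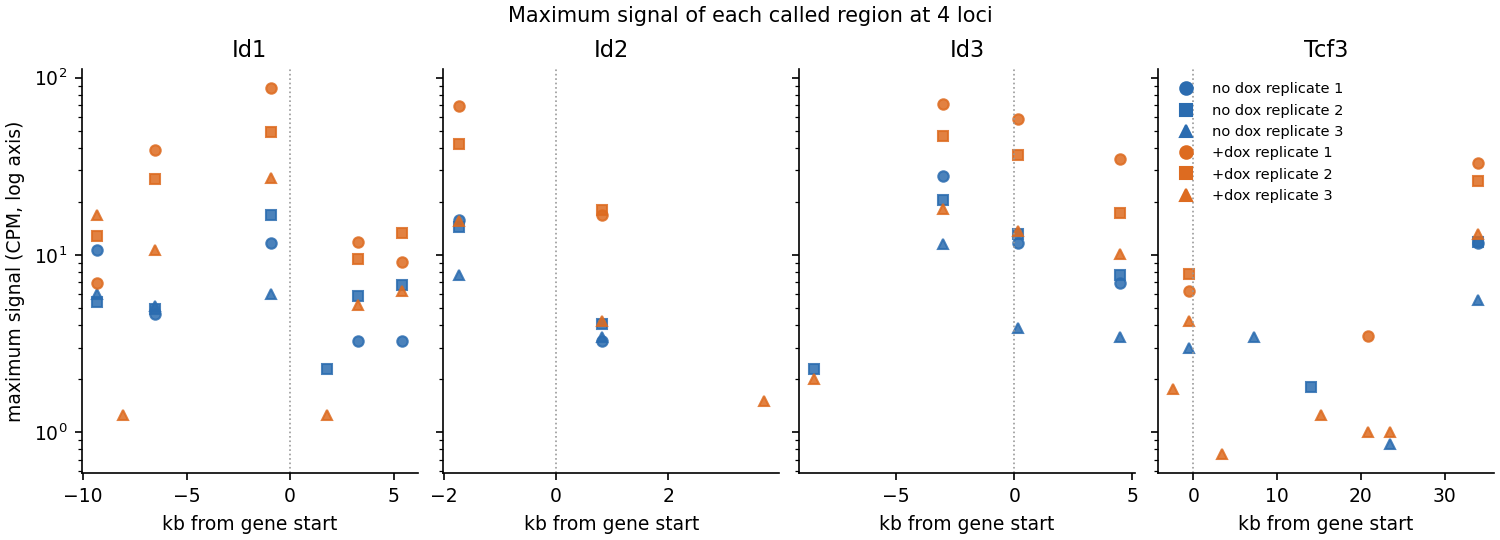
Maximum signal in CPM (log axis) of each called region at Id1, Id2, Id3 and Tcf3 against the distance of the region's centre from the gene start in kb; the dotted line is the start, downstream is positive. Points are libraries (blue, no dox; orange, +dox; marker shape gives the replicate). At Id1 the region 925 bp before the start spans 6.00 to 87.9 CPM, and at Tcf3 the only region called in all 6 libraries lies 34021 bp downstream.

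Among the partners, Tcf3 had 9 regions, of which 1 was called in all 6 libraries, beside 8.30% of all regions. That region (chr10:80398351-80400200) stood at 11.6, 11.7 and 5.57 CPM without dox and 33.1, 26.1 and 13.1 CPM with dox, so the +dox libraries were all higher. Its percentile was 81.2 ± 4.64 without and 91.3 ± 3.08 with dox (SD, n = 3 each), and its shared-set groups overlapped. It lies 34021 bp after the Tcf3 start, at the edge of the window, and its centre is 76 bp from the start of Mbd3, the gene of a chromatin-remodelling subunit. If peaks are given to the gene with the nearest start, an alternative chosen after seeing the data, no dox replicate 1 has no Tcf3 peak. Closer to Tcf3 itself, the region 504 bp before its start was called in no dox replicate 3 at 3.00 CPM and in the +dox replicates at 6.28, 7.79 and 4.23 CPM. The percentiles there were 47.9 without dox and 35.5, 54.4 and 81.1 with dox, so the one no dox value lies inside the +dox range.

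Tcf4 had 13 regions, of which 10 were called in +dox replicate 3 alone, beside 59.2% of all merged regions. Its region called in all 6 libraries lies in an intron 126270 bp after the gene start (chr18:69469151-69470400). It stood at 10.7, 9.93 and 8.57 CPM without dox. With dox it stood at 10.5, 9.45 and 26.4 CPM, so replicates 1 and 2 were level with the untreated libraries and replicate 3 was far above. The percentile was 82.9 ± 3.73 without and 73.3 ± 21.7 with dox (SD, n = 3 each; p = 0.4 in the exact two-sided permutation test, 0.774 when adjusted). On the shared-set scale +dox replicates 1 and 2 were at 28.2 and 26.8, below the no dox values of 64.2, 53.1 and 69.6, and +dox replicate 3 was at 81.7. Near annotated starts of Tcf4, a region in a UTR 1120 bp after the gene start was called in no dox replicate 2 at 4.97 CPM and in the +dox replicates at 13.9, 9.45 and 1.74 CPM. Another, 249295 bp after the gene start and 337 bp from an internal start, was called in 5 libraries, at 6.77 and 4.29 CPM in no dox replicates 2 and 3 and at 7.32, 11.1 and 6.48 CPM with dox.

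Tcf12 gave the single member region with calls in 3 of 3 +dox libraries and in 0 of 3 without dox, a pattern seen in 1.09% of all regions. The opposite pattern, found in 0.00858% of all regions, occurred at no member. The Tcf12 region (chr9:72110951-72112400) lies across the gene start with its maximum 255 bp before it. Its maxima were 6.28, 3.89 and 1.49 CPM, or 18, 14 and 12 alignments, and its percentiles were 35.5, 19.0 and 44.8. At heights of so few alignments, the lack of calls without dox does not show that binding was absent. Around its maximum it holds 2 CAGCTG and 1 CACCTG, all marked above. The one no dox peak of the Tcf12 window, at 2.71 CPM in replicate 2, lies 236895 bp after the start, where +dox replicate 3 had its strongest Tcf12 peak at 9.21 CPM.

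Across loci, the highest percentile in each window compared best binding gene by gene. At Id1 it was 82.2, 90.9 and 78.4 without dox and 97.8, 96.4 and 98.3 with dox. At Id2 it was 88.7, 88.8 and 84.8 against 96.6, 95.3 and 95.9. At Id3 it was 95.8, 93.2 and 92.2 against 96.8, 96.0 and 96.8, the smallest gap of the 3 inhibitors with these windows. Over gene bodies without flanks, where other peaks are the highest, the mean difference was 39.0 at Id2 and 18.1 at Id3, against 8.54 and 2.76 with the flanks. At Tcf3 it was 82.2, 85.3 and 76.1 against 89.3, 89.8 and 94.9, all from the region beside the start of Mbd3. At Tcf4 it was 80.0, 81.5 and 87.1 against 68.9, 69.4 and 98.2, the one member where the groups overlapped. The Tcf4 values in +dox replicates 1 and 2 came from the regions 1120 and 249295 bp after the gene start, respectively. In the other libraries they came from the region 126270 bp after it, where +dox replicates 1 and 2 stood at 58.4 and 63.2. Of the 5 members with a peak in all 6 libraries, 4 had each +dox library above each no dox library, beside 27.4% of the 5418 genes so called. None had the reverse, beside 0.0185%. For each of Id1, Id2, Id3 and Tcf3 the exact two-sided permutation p was 0.1, the smallest that 3 libraries against 3 allow, and the adjusted p over the 5418 genes was 0.364. No gene could therefore pass a threshold of 0.05. At Tcf4 the exact permutation p was 0.7 and the adjusted p 0.857.

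**Figure D3:**
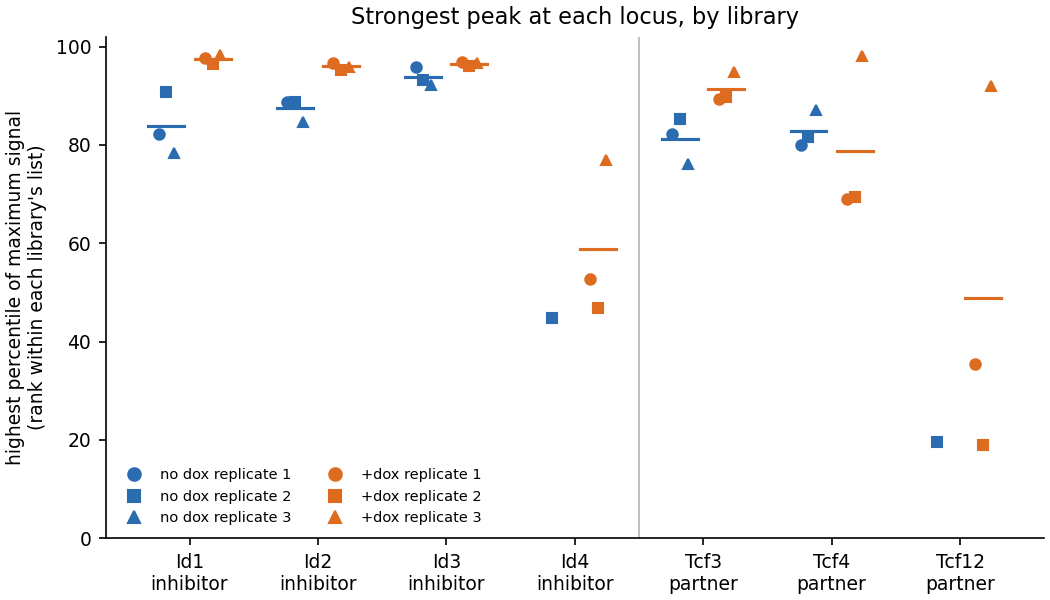
Highest percentile of maximum signal (rank within each library's own list, vertical axis) at each locus. Points are libraries (blue, no dox; orange, +dox; marker shape gives the replicate), bars are means of 3, and a library without a peak has no point. Id1, Id2, Id3 and Tcf3 have all +dox points above all no dox points. At Tcf4, +dox replicates 1 and 2 lie at 68.9 and 69.4 and replicate 3 at 98.2, each from a different region.

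Partners and inhibitors were then set side by side over the loci called in all 6 libraries (Id1, Id2 and Id3; Tcf3 and Tcf4). The mean best percentile of the Id genes was 88.9, 91.0 and 85.1 without dox and 97.0, 95.9 and 97.0 with dox. That of the E-protein genes was 81.1, 83.4 and 81.6 without dox and 79.1, 79.6 and 96.5 with dox. The Tcf3 part of these E-protein means comes from the region beside the start of Mbd3. The Id genes were the higher set in all 6 libraries, with E-protein minus Id averaging -8.93 points. The difference between +dox and no dox was 8.33 points for the Id genes and 3.04 points for the E-protein genes. Over all genes with a peak in all 6 libraries, the median of this difference was 8.52 points. Within replicate pairs of the same number, the Id difference was 8.16, 4.96 and 11.9 points. The E-protein difference was -2.00, -3.77 and 14.9 points, so its sign came from replicate 3. No test was made on these means, since the loci were chosen and are few.

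Region by region, 8 of the 15 Id regions and 2 of the 25 E-protein regions were called in all 6 libraries. The share over all regions was 8.30%. Of the 8 Id regions, 7 had all +dox percentiles above all no dox percentiles, as had 1 of the 2 E-protein regions, beside 23.7% of the 4838 regions. None had all of them below, beside 0.0413%. Each of these 8 regions had an exact two-sided permutation p of 0.1 and an adjusted p of 0.421. On the shared-set scale, with the same denominator in each library, 3 of the 8 Id regions and 0 of the 2 E-protein regions kept the groups apart with +dox higher, beside 3.56%. None was apart with +dox lower, beside 4.44%. The 3 were the Id1 regions 6525 and 925 bp before the gene and the Id3 region 4479 bp after its start. In same-numbered pairs, the shared-set percentile was higher with dox in 3 of 3 pairs at 4 Id regions and 1 E-protein region, beside 18.4%. The median difference on that scale was 22.9 points over the 8 Id regions and -4.17 over the 2 E-protein regions, beside 0.195 over all 4838. Median ratios of CPM were 3.52 and 2.04, beside 1.94. Neighbouring regions of one gene are not independent of each other. Regions in +dox replicate 3 alone numbered 2 of 15 at the Id genes and 14 of 25 at the E-protein genes, beside 59.2% in the series.

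**Figure D4:**
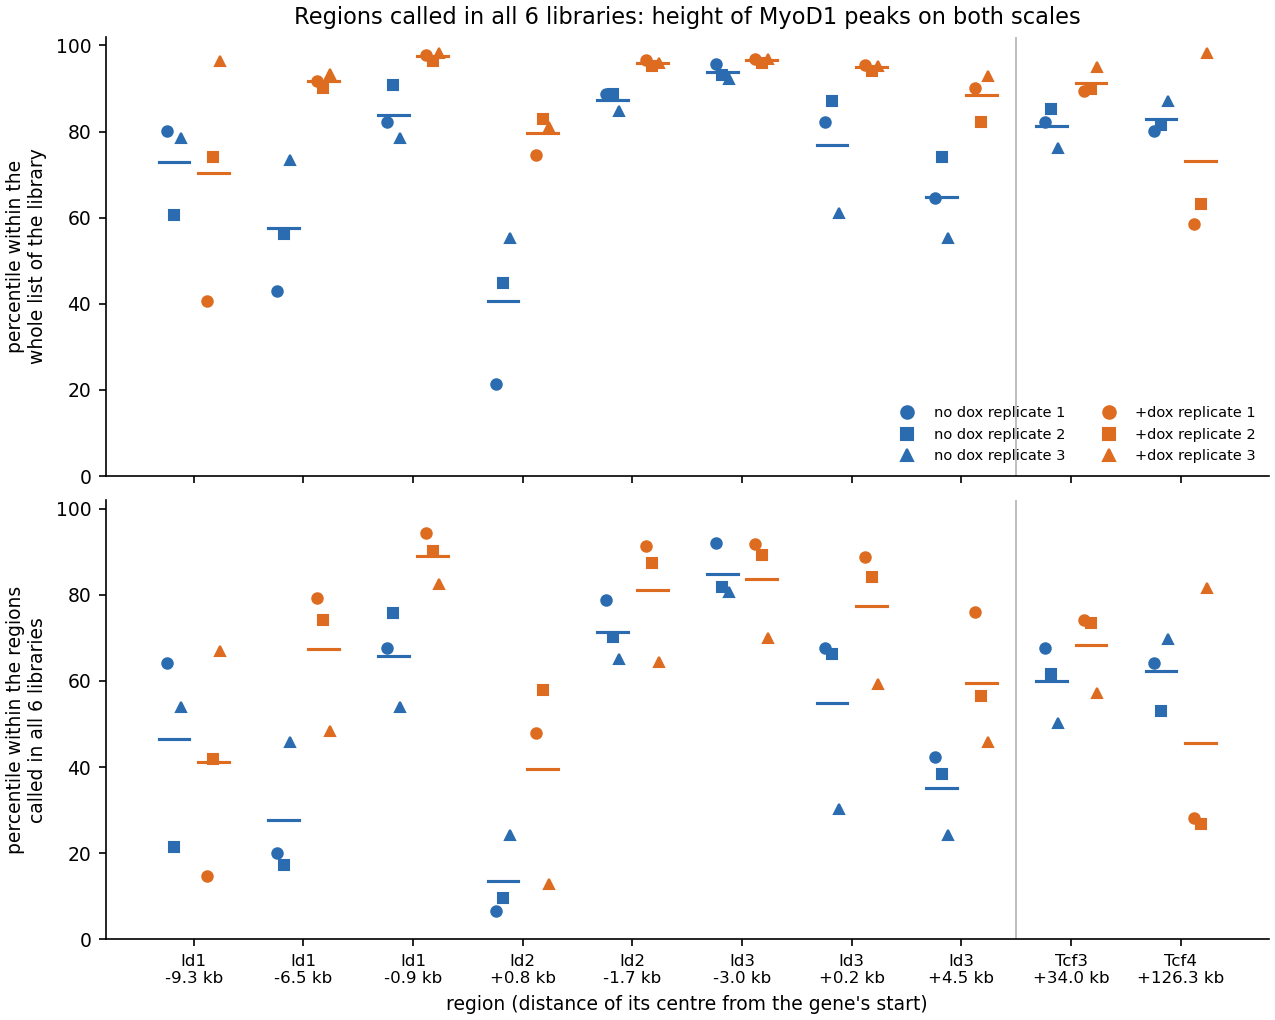
The 10 member regions called in all 6 libraries, by gene and distance of the centre from the gene start. The upper panel gives the percentile of maximum signal within each library's list and the lower panel the percentile among the 4838 regions called in all 6; points are libraries (blue, no dox; orange, +dox; marker shape gives the replicate) and bars are means of 3. In the lower panel only the middle and right-hand Id1 regions and the right-hand Id3 region keep every +dox point above every no dox point, and the Tcf4 region has +dox replicates 1 and 2 at 28.2 and 26.8.

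E-boxes were counted around the maximum of each region and over its whole length. CAGCTG, which is its own reverse complement, lay within the 200 bp around the maximum in 4 of the 8 Id regions and 1 of the 2 E-protein regions called in all 6, beside 48.3% of the 4838. In the whole region with 100 bp on each side it was present in all 10, beside 85.4%. CAGGTG or CACCTG lay around the maximum in 1 of 8 and 0 of 2, beside 19.1%. The general E-box CANNTG, which includes both, lay there in 5 of 8 and 2 of 2, beside 77.3%. TGANTCA, the AP-1 site with a free central base, lay there in 1 of 8 and 0 of 2, beside 14.3%. The strongest regions of Id2 and Id3 had no CANNTG in the 200 bp printed, although their whole regions held 5 and 2 CAGCTG. Of the 3 Id regions that stayed apart on the shared-set scale, 2 had a CAGCTG within those 200 bp and the Id3 one a CAGGTG.

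The genes nearest to each member in best percentile over the 6 libraries were found among all protein-coding genes. Id1 was closest to Pde4d, a cAMP phosphodiesterase gene (mean absolute difference 0.889 points), and Rdh8, a retinol dehydrogenase gene (1.87 points). Id2 was closest to Sypl (1.02) and Ttc7 (1.27). Id3 was closest to Ptk2, which encodes focal adhesion kinase (0.693), and Cbln1 (0.798). Tcf3 was closest to Lrp8 (1.13) and Il4ra (1.20), and Tcf4 to Adam8 (2.22) and Kcnn3 (3.05). The patterns of the first 4 were common, with 437, 767, 1014 and 560 genes within 5 points of Id1, Id2, Id3 and Tcf3. That of Tcf4 was shared by 49.

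Lists of genes around the Id and E-protein axis were read against the same shares of all genes, 35.5% with a no dox and 48.4% with a +dox consensus region, and 27.4% with the best percentile higher throughout among those with a peak in all 6. Of 11 genes for bHLH factors that dimerize with E-proteins, 3 had a no dox consensus region (Myod1, Myog and Scx) and 3 a +dox one (Myod1, Scx and Twist2). Of the 2 with a peak in all 6 libraries, only Scx, the tendon factor scleraxis, had its best percentile higher in all +dox libraries (99.8 to 99.9 in the means), and Myod1 itself went from 98.9 to 97.3 with overlap. Of 10 genes that carry or restrain the BMP signal to Id genes, 8 had a no dox and 9 a +dox consensus region. Of the 5 with a peak in all 6 libraries, only Smad7, an inhibitory Smad, was higher in each +dox library, at a mean of 88.4 against 69.5. Of 4 other genes that act on Id genes or proteins (Egr1, Usp1, Klf4 and Zeb1), all had a consensus region in both groups. Of the 2 with a peak in all 6 libraries, only Egr1, an immediate early factor, was higher throughout, at 95.2 against 80.0. With so few genes in each list, these counts are a description. No listed gene was lower in each +dox library, beside 0.0185% of the genes with a peak in all 6. None had a region called in 3 libraries of one group and 0 of the other. Over all regions these shares were 1.09% with +dox calls only and 0.00858% with no dox calls only. For Scx, Smad7 and Egr1 the exact permutation p was 0.1 and the adjusted p 0.364, as for the members above.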

How the data were processed

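MyoD1 CUT and RUN peak lists of 3 no dox and 3 +dox libraries were used. The authors made them with nf-core/cutandrun on mm10, with a blacklist, CPM scaling and SEACR in relaxed mode, each library on its own, and SEACR and deepTools are named in the submitters' processing notes. No control library for peak calling is given in the sources used here. Each deposited peak holds its total and maximum signal (coverage in CPM), with no spike-in scale, so amounts of bound protein cannot be compared between libraries. In each list 100% of maximum signals lay within 0.02 steps of a whole number of the list's smallest step, taken as 1 alignment, which gave the depth. Percentiles were mean ranks within a list. Coordinates count from 1, and an overlap was 1 bp or more.

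Group means were compared by exact two-sided permutation tests over 20 assignments (smallest p 0.1), with Benjamini-Hochberg adjustment over all genes, or all regions, with a peak in all 6 libraries. Same-numbered libraries deviated together from their group means over 4838 regions (correlations 0.425, 0.271 and 0.608). The numbers were taken to pair the libraries in the same-numbered comparisons and in the sign-flip tests given at the end. The permutation tests left this pairing out. The labels call the libraries biological replicates and name no shared day. Regions named are, per locus, the strongest, those called in all 6 libraries and those called in 3 of one group and 0 of the other, and others were named after their values were seen. The members, lists and tests were chosen with earlier results of these data known. Overlaps, merging and tests were tested on simulated data. Python 3.11.15, NumPy 2.4.6, pandas 2.3.3, SciPy 1.17.1 and matplotlib 3.10.9 were used.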

Additional observations from a re-analysis of the deposited data

How the results depend on the processing

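Of 245 alternative values, 10 reversed. For the summary values, 86 stayed within the spread between libraries (counts within 1.5 times) and 14 moved beyond it. The other 135, of single loci and regions, kept their direction but not always their size. No p could cross a threshold in this design. The Id difference of 8.33 points ranged from 6.73 to 9.64 on leaving out each library. It was 6.03 with total signal ranked, 10.6 over regions called in all 6 libraries and 17.2 with an uncalled library set to 0. The E-protein difference of 3.04 ranged from -2.68 (without +dox replicate 3) to 6.03. It was -2.88 with replicates 1 and 2 only, -2.30 with lists of equal length, -4.17 over regions called in all 6 and 16.1 with an uncalled library set to 0. E-protein minus Id, -8.93, was -20.3 over regions called in all 6 and -4.65 with total signal ranked. Without flanks the differences in best percentile were 39.0 at Id2 and 18.1 at Id3, against 8.54 and 2.76. Id3 reversed, both at its locus and at its strongest region, to -1.06 with lists of equal length and -1.14 over regions called in all 6. The difference in best percentile at Tcf4, -4.04, ranged from -13.7 to 0.924 on leaving out each library, was 0.654 without +dox replicate 2 and was -16.8 over regions called in all 6. Regions with all +dox percentiles above numbered 2 with lists of equal length, 3 over regions called in all 6 and 3 without flanks, against 8. The +dox minus no dox difference in peaks at the 7 loci, 12.3, was 3.67 with lists of equal length, 23.7 with 50 kb flanks, 7 with one threshold, 5.5 with replicates 1 and 2 only, and 6.33 to 15.8 on leaving out each library, lowest without +dox replicate 3. Consensus regions (no dox and +dox) numbered 5 and 10 without flanks and 23 and 31 with 50 kb flanks. The cause of these changes was not tested. With the replicate block the differences are the same by construction (Id 8.33, E-protein 3.04), with an exact sign-flip p of 0.25 for Id1, Id2, Id3 and Tcf3, the smallest possible, and 0.5 for Tcf4, and it changed no call. Group means without flanks, E-protein means by nearest start, consensus counts and E-protein minus Id with the block, and peak and consensus counts over regions called in all 6 have no value.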
